A study of Mus musculus with 6 samples.

Results

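Integrins and laminins, the receptors and a main family of ligands of the contact between cells and basement membranes, were described in dermal cells with and without Nelfb. Members were taken by symbol from the protein-coding genes of the deposited table (Itga followed by any ending, Itgb followed by a digit, and Lama, Lamb or Lamc followed by a digit). This gave 36 of 17924 listed genes, with 25 integrins and 11 laminins. Itgal, Itgam, Itgax and Itgb2, the chains of the leukocyte integrins, were kept apart as a group of 4, which left 21 other integrins. Itgb6 was the 1 further gene of this kind in the annotation, and it had no row in the table used here.

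The data were RNA-seq profiles of dermal fibroblasts taken from the back skin of newborn (P0) mice and cultured for 14 days in an adipocyte differentiation medium, a model of adipocyte formation in the skin. CTL cells carried Nelfb fl/wt or Nelfb wt/wt, and Nelfb-/- cells carried Nelfb fl/fl. All mice carried Pdgfra-Cre and had a C57BL/6J background, so that deletion was directed to cells that have expressed Pdgfra, and any other cells in the dishes would keep the gene. Each group had 3 libraries described as biological replicates, and the labels call the samples adipocytes. Nelfb encodes a subunit of the negative elongation factor, which holds RNA polymerase II in a paused state near gene starts.

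An integrin is a pair of an alpha and a beta chain that spans the membrane and binds the matrix or another cell outside. Inside, most integrins, though not all, connect to actin through talin and kindlin. A laminin is a cross-shaped trimer of an alpha, a beta and a gamma chain, which forms the polymer on which basement membranes are built. In fat, fibroblast precursors sit in a fibronectin-rich matrix, and each mature adipocyte is wrapped in a basement membrane with laminins.

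Values are reads per 1000000 reads on the listed genes (CPM), with no correction for gene length. The depth lay between 17.2 and 29.4 M reads (M, 1000000), and 3 reads, taken as the floor of detection, were worth 0.102 to 0.175 CPM. Values are given in the order of replicates 1, 2 and 3. Nelfb was at 17.3, 19.6 and 22.3 CPM in CTL against 5.50, 3.90 and 5.55 CPM in Nelfb-/- cells (log2 fold change -1.99, limma, FDR = 0.0050), and the groups did not overlap. Across all genes tested, CTL replicate 3 stood apart from CTL replicates 1 and 2 (r = 0.942 and 0.940 against 0.985 between those), and Nelfb-/- replicate 1 stood apart from replicates 2 and 3 (r = 0.930 and 0.945 against 0.988). CTL replicate 3 lay 2-fold or more from the mean of the other CTL libraries at 12 of the 35 members tested, and calls that rest on a single library are given without it. The summed level of 9 fibroblast markers was 4504 to 17153 CPM in CTL and 8632 to 33892 CPM in Nelfb-/- cells with 0 of 9 called. That of 8 adipocyte markers was 20575 to 31579 and 11063 to 20482 CPM with 1 called, Lep, which rose. Genes were tested with limma on log2(reads + 1) at a common depth, with p adjusted over the 16251 genes that had a mean of at least 10 reads. A gene was counted as called where this p, the FDR, was 0.05 or less and the fold was 2 or more. Log2 fold changes are of Nelfb-/- over CTL cells and are given ± SE. Members, partner lists and marker lists are described by their counts, to be read against the 7.58% of all genes tested that were called higher and the 3.64% called lower.

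Of the 36 members, 35 passed the filter on low values, and Itgb7 did not. Itgal and Itgax passed it only through their levels in Nelfb-/- cells, and they are part of the counts and medians below. In Nelfb-/- cells 9 members were upregulated, among them Itgal, Itgb8, Itgax, Itgam, Itga4, Itgb4, Itga9 and Lamb3, and 2 were downregulated (Itgae and Lamb1), 31.4% of those tested, where 11.2% of all genes tested were called. By direction, 25.7% of the members were called higher against 7.58% of all genes, and 5.71% were called lower against 3.64%. Without the 4 leukocyte integrins, 8 of 31 members were called (25.8%), 6 higher and 2 lower. The counts of members called were far lower on leaving out Nelfb-/- replicate 3, and changed under other settings given with the alternatives. Lama2 was past the FDR limit but under 2-fold, and 15.8% of all genes were past the FDR limit at any fold. The median log2 fold change was 0.34 over the 35 members, 0.24 without the leukocyte integrins, 2.93 for the leukocyte integrins, 0.30 for the other integrins and 0.09 for the laminins, beside 0.07 over all genes. The libraries of the groups did not overlap at 18 members (51.4%), 12 higher and 6 lower, where 38.1% of all genes had groups apart, 22.0% higher and 16.1% lower. The log2 fold change was above 0 for 22 members, and for 54.6% of all genes. No test of the members against other genes was run.

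**Figure D1:**
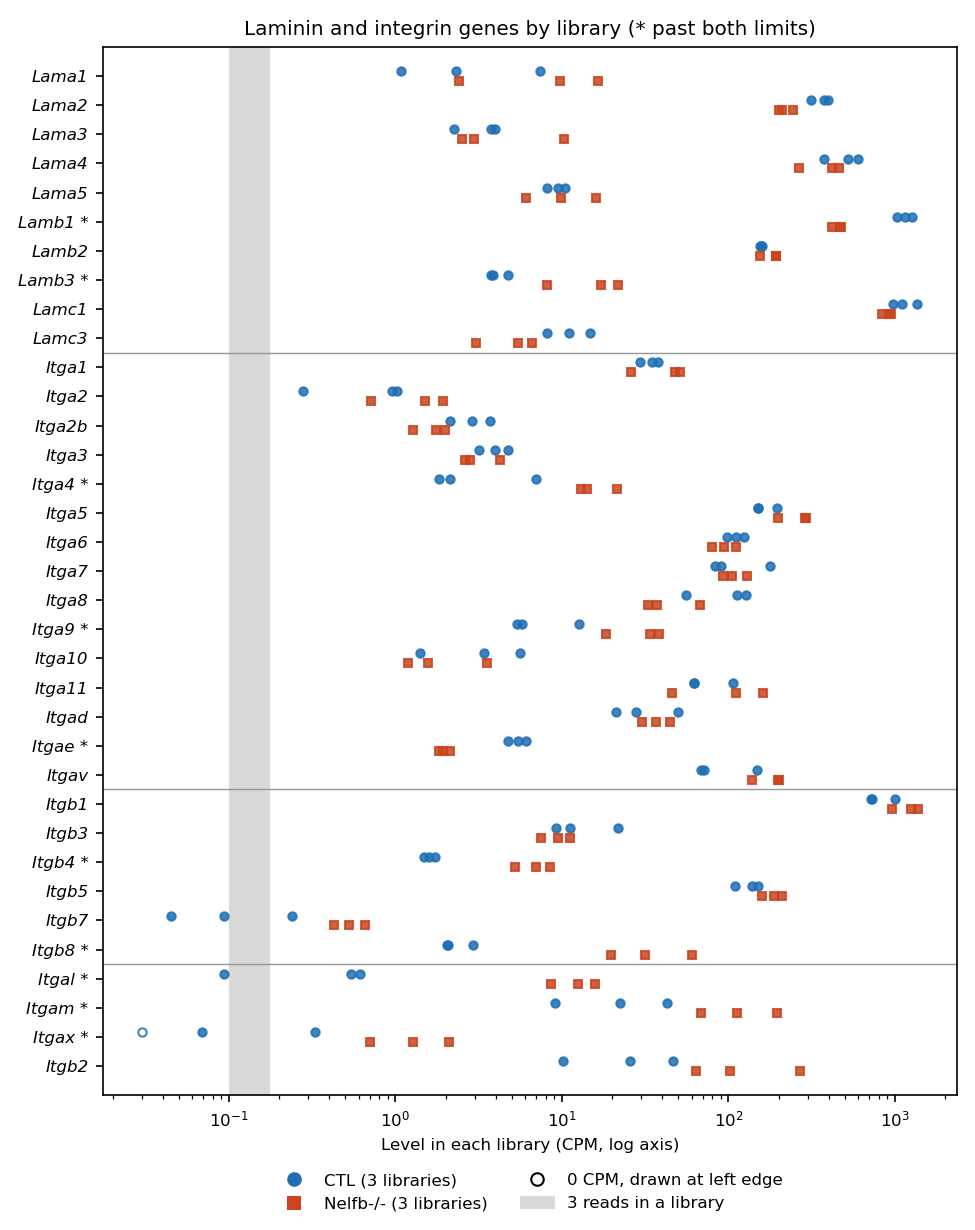
Level of 35 of the 36 genes in each of the 6 libraries (CPM, log axis), with circles for CTL, squares for Nelfb-/- cells, an open symbol for 0 CPM, a grey band for the level of 3 reads, and lines between laminins, integrin alpha chains, integrin beta chains and leukocyte integrins. Genes with an asterisk are past both limits, of which Lamb1 lies at 1030.3 CPM or more in CTL and at 476 CPM or less in Nelfb-/- cells, and Itgb8 and Itgal lie at 2.92 CPM or less in every CTL library.

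**Figure D2:**
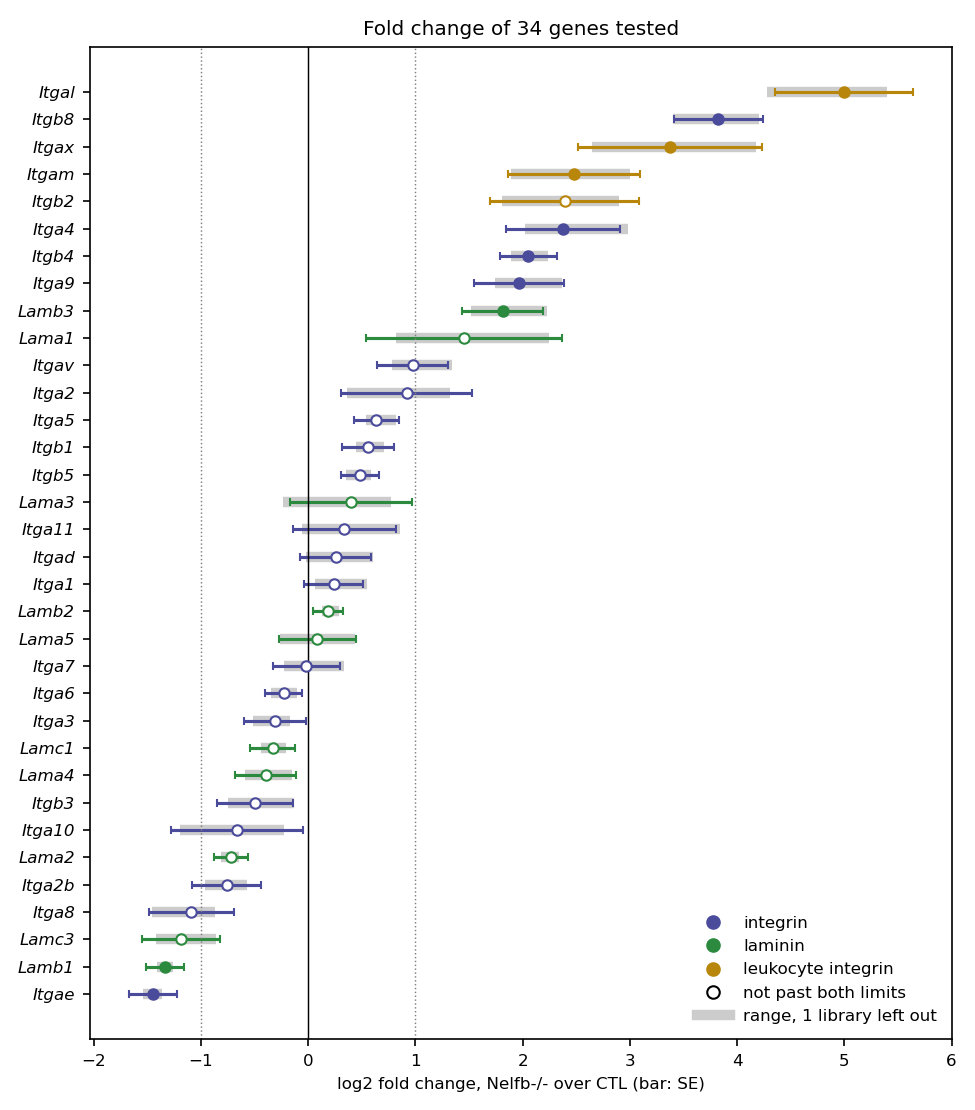
Log2 fold change of 34 of the 35 genes tested (points, with SE as thin bars) and its range when 1 library was left out (grey bars), with filled points for genes past both limits and dotted lines at 2-fold. The fold changes run from -1.45 for Itgae to 4.997 for Itgal, and the 4 leukocyte integrins and Itgb8 hold the 5 highest places.

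By level per kilobase of exon, the only scale on which genes are compared here, Itgb1, Lamc1 and Lamb1 were the 3 highest members in CTL, with 199.9 ± 38.7, 138 ± 22.9 and 116 ± 11.6 CPM per kb (SD, n = 3). The ranges of Lamc1 and Lamb1 overlapped, and both lay under every value of Itgb1. In Nelfb-/- cells Itgb1 (293 ± 52.6) and Lamc1 (109.1 ± 7.0) were still the 2 highest, and Lamb1 (45.8 ± 3.21) was the sixth. Between them came Itga5, Itgb5 and Itgb2, each with a range that overlapped that of the next. Itga2, Itgb7 and Itgax were among the 4 lowest members in CTL and were the 3 lowest in Nelfb-/- cells.

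Among the laminin beta chains, Lamb1, the most abundant of them, was called lower, Lamb3 was called higher and Lamb2 was not called. Lamb1 (laminin beta 1), the beta chain of most laminins of fibroblasts and fat, lies on chromosome 12, 31265234 to 31329644, plus strand (ENSMUSG00000002900). It was at 1151, 1030.3 and 1259.9 CPM in CTL against 418, 476 and 469.9 CPM in Nelfb-/- cells. Every Nelfb-/- library lay under every CTL library, and both groups were tight. Lamb1 was downregulated with a log2 fold change of -1.33 ± 0.18 (limma, FDR = 0.0077), and its FDR was 0.054 on leaving out Nelfb-/- replicate 3. Lamb2 (laminin beta 2), which takes the place of beta 1 in laminins of muscle and nerve endings, was at 155, 156 and 159.9 CPM in CTL against 155, 192 and 192 CPM in Nelfb-/- cells. The groups overlapped through Nelfb-/- replicate 1, and Lamb2 was not called, with a log2 fold change of 0.19 ± 0.14 (limma, FDR = 0.40). Lamb3 (laminin beta 3), found in the laminin under epithelia, lies on chromosome 1, 193207699 to 193343878, plus strand (ENSMUSG00000026639). It was at 3.83, 4.76 and 3.74 CPM in CTL against 8.16, 21.7 and 17.1 CPM in Nelfb-/- cells. All Nelfb-/- libraries lay above CTL, with replicate 1 the lowest, and Lamb3 was upregulated with a log2 fold change of 1.81 ± 0.38 (limma, FDR = 0.025). Its FDR was 0.087 on leaving out CTL replicate 1, 0.073 for CTL replicate 2, 0.074 for Nelfb-/- replicate 2 and 0.11 for Nelfb-/- replicate 3. Hsd11b1 and G0s2 lie within its annotated span on the opposite strand, without shared exon bases, and their Nelfb-/- libraries all lay under CTL. Hsd11b1 was at 51.2, 87.6 and 33.9 CPM in CTL against 22.6, 8.61 and 7.51 CPM in Nelfb-/- cells, and G0s2 at 388, 380.1 and 596 against 42.8, 259 and 193 CPM.

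The window before the start of Lamb1 is shown since per kb this gene was the most abundant in CTL of the members past both limits. It runs from the RefSeq promoter window (GRCm38.p6) up to the annotated start of the gene, 191 bases on the plus strand at chr12:31265043-31265233, and holds 2 matches to GGGCGG, the core bound by Sp1. Capitals mark these matches, searched on both strands.
Lamb1: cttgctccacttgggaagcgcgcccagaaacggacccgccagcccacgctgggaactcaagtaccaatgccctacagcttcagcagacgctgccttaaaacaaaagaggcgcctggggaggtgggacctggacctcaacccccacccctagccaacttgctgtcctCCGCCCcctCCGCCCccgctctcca

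Promoter windows were matched for 22 of the 36 members (24 windows of 250 bases before the RefSeq start). GGGCGG was present in 9 of these 24 windows and in 32.7% of all 32851 windows, and a match is a description of letters, not of binding.

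Among the gamma chains, Lamc1 (laminin gamma 1), the gamma chain of nearly all laminins outside epithelia, was at 1101, 978 and 1349.6 CPM in CTL against 838, 918 and 951 CPM in Nelfb-/- cells. All Nelfb-/- libraries lay under CTL, by a small margin, and it was not called. Lamc1 had a log2 fold change of -0.33 ± 0.21 (limma, FDR = 0.33). Lamc3 (laminin gamma 3), a minor chain, was at 11.0, 8.12 and 14.8 CPM in CTL against 3.03, 5.47 and 6.64 CPM in Nelfb-/- cells, and the groups did not overlap, but its FDR missed the limit. Lamc3 had a log2 fold change of -1.18 ± 0.37 (limma, FDR = 0.075). It was called lower under quantile normalization (limma, FDR = 0.036) and with a term for a second split of the libraries (limma, FDR = 0.0027), the latter added after the data were seen. That split is not among the sample labels and follows the closeness of these same libraries, so its FDR is no separate support.

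The alpha chains, which carry the sites that integrins and dystroglycan bind, gave 0 calls among 5 at both limits, where 11.2% of all genes were called. Lama4 (laminin alpha 4), an alpha chain of fat and vessels, was at 524, 373 and 597 CPM in CTL against 266, 459 and 420.2 CPM in Nelfb-/- cells, with overlapping groups. Lama4 had a log2 fold change of -0.40 ± 0.28 (limma, FDR = 0.38). Lama2 (laminin alpha 2), the alpha chain of muscle and nerve, was at 396, 373 and 313 CPM in CTL against 245, 202 and 210.3 CPM in Nelfb-/- cells, with every Nelfb-/- library under CTL. It passed the FDR limit but was under 2-fold, with a log2 fold change of -0.72 ± 0.16 (limma, FDR = 0.031). Its FDR was 0.12 on leaving out CTL replicate 1, 0.12 for CTL replicate 2, 0.11 for Nelfb-/- replicate 2 and 0.14 for Nelfb-/- replicate 3, and 0.059 without moderation of the variances. Lama1 (laminin alpha 1), best known from embryonic basement membranes, was at 2.30, 1.07 and 7.38 CPM in CTL against 2.42, 9.72 and 16.6 CPM in Nelfb-/- cells, and it varied within both groups, with Nelfb-/- replicate 1 at the level of CTL. Lama1 had a log2 fold change of 1.45 ± 0.91 (limma, FDR = 0.32), which ran from 0.82 without CTL replicate 2 to 2.24 without Nelfb-/- replicate 1. Lama3 (laminin alpha 3), the epithelial alpha chain, was at 3.97, 3.73 and 2.24 CPM in CTL against 10.3, 2.50 and 2.98 CPM in Nelfb-/- cells, with Nelfb-/- replicate 1 alone above CTL. Lama3 had a log2 fold change of 0.40 ± 0.57 (limma, FDR = 0.67). Without Nelfb-/- replicate 1 its log2 fold change was -0.23. Lama5 (laminin alpha 5), a widely used alpha chain, was at 8.12, 9.47 and 10.4 CPM in CTL against 15.9, 6.05 and 9.91 CPM in Nelfb-/- cells, again with Nelfb-/- replicate 1 the highest. Lama5 had a log2 fold change of 0.09 ± 0.36 (limma, FDR = 0.89).

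Within the beta family, Lamb1 made up 81.3 ± 1.44% of the level per kb in CTL and 59.1 ± 1.86% in Nelfb-/- cells, Lamb2 18.2 ± 1.34% and 37.9 ± 0.90%, and Lamb3 0.44 ± 0.10% and 2.98 ± 1.10% (SD, n = 3). The shares of the groups did not overlap for any of these chains (exact two-sided permutation test, p = 0.1, n = 3). That is the smallest p that 3 against 3 libraries allow, so that none of the 32 shares compared could pass 0.05, before or after adjustment. Per kb, Lamb1 stood at 87.2, 87.9 and 77.9% of Lamc1 in CTL and at 41.6, 43.2 and 41.2% in Nelfb-/- cells. Lama4 held 63.1 ± 6.97% of the alpha family in CTL and 65.8 ± 9.04% in Nelfb-/- cells, a difference smaller than the spread of the libraries (exact permutation p = 0.8, n = 3). Summed, the beta chains came to 142 ± 11.8 CPM per kb in CTL and 77.7 ± 7.74 in Nelfb-/- cells (exact permutation p = 0.1, n = 3). The alpha chains summed to 64.9 ± 8.53 and 47.5 ± 6.82 CPM per kb (exact permutation p = 0.1, n = 3).

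**Figure D3:**
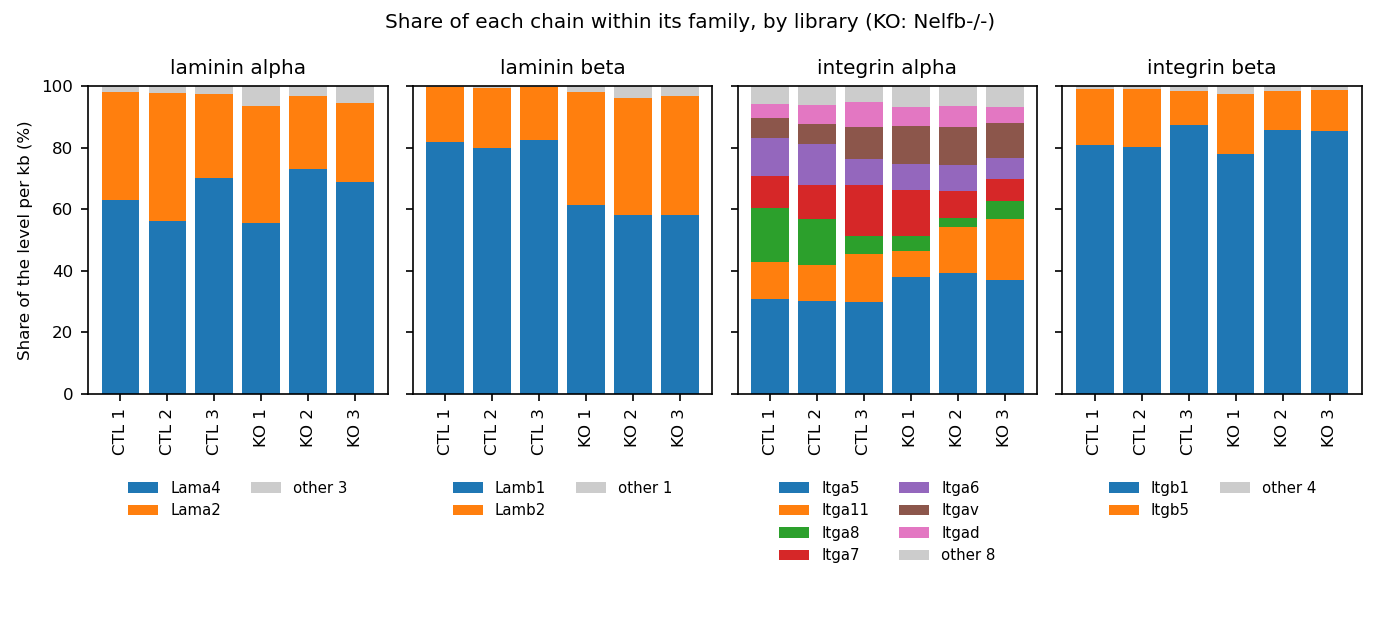
Share of each chain in the level per kb of its family in each library (percent, stacked bars from 0 to 100), for laminin alpha and beta chains and for integrin alpha and beta chains without the leukocyte integrins, with chains under 5% in every library summed in grey. In the beta family, Lamb1 goes from 79.7 to 82.5% in CTL to 58.0 to 61.2% in Nelfb-/- cells.

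Lamb3 is, with Lama3 and Itgb4, best known from epithelia, and markers of keratinocytes were therefore read beside it. Of 12 such markers 9 were listed, 6 were tested and 2 were called higher, Krt14 and Col17a1. Both lay under the 0.448 CPM of the filter in every CTL library, so they were tested only through the Nelfb-/- libraries. Krt14 was at 0.361, 0.187 and 0.0680 CPM in CTL against 0.853, 3.32 and 5.06 CPM in Nelfb-/- cells, and Col17a1 at 0.225, 0.140 and 0.272 CPM in CTL against 0.759, 2.50 and 3.88 CPM in Nelfb-/- cells. Their summed level was 3.97 to 5.32 CPM in CTL and 9.82 to 23.9 CPM in Nelfb-/- cells, and Krt15, Dsg3 and Epcam were not listed. Markers of Schwann cells also moved with the group, with 7 of 8 listed, 6 of 7 called higher and sums of 52.3 to 91.9 and 337 to 437 CPM. Endothelial markers summed to 10.9 to 15.4 and 18.4 to 27.8 CPM, with 8 of 8 listed and 1 of 7 called higher, Emcn (14.3%, beside 7.58% of all genes). The part of such cells in these results was not tested, and in bulk RNA fewer cells of a type and less RNA per cell cannot be told apart.

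Among the integrin beta chains, Itgb8 and Itgb4 were upregulated from low levels, and none of the abundant chains was called. Itgb8 (integrin beta 8), which pairs with alpha v and is known for releasing active TGF-beta from its latent complex, lies on chromosome 12, 119158022 to 119238802, minus strand (ENSMUSG00000025321). It was at 2.07, 2.05 and 2.92 CPM in CTL against 60.3, 31.3 and 19.8 CPM in Nelfb-/- cells. Every Nelfb-/- library was well above CTL, with replicate 1 the highest and replicate 3 the lowest. The log2 fold change of 3.83 ± 0.41 (limma, FDR = 0.0050) was the largest of any member outside the leukocyte integrins, and the gene was called with each of the 6 libraries left out and under all 11 other settings. Per kb, Itgb8 stood at 0.107, 0.104 and 0.108% of Itgb1 in CTL and at 2.32, 0.922 and 0.531% in Nelfb-/- cells. Against Itgav, its partner, it stood at 2.93, 2.81 and 1.91% in CTL and at 42.1, 15.2 and 9.75% in Nelfb-/- cells, so that it stayed the less abundant chain in every library.

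Itgb4 (integrin beta 4), the partner of alpha 6 in hemidesmosomes and in Schwann cells, lies on chromosome 11, 115974709 to 116008412, plus strand (ENSMUSG00000020758). It was at 1.49, 1.59 and 1.73 CPM in CTL against 5.22, 8.50 and 7.02 CPM in Nelfb-/- cells. The CTL libraries were nearly equal, and all Nelfb-/- libraries lay above them. It was upregulated with a log2 fold change of 2.05 ± 0.26 (limma, FDR = 0.0072), with an FDR of 0.051 on leaving out Nelfb-/- replicate 3. Per kb it came to 1.73, 1.66 and 2.26% of Itga6 in CTL and to 8.43, 9.84 and 9.56% in Nelfb-/- cells. Markers of melanocytes, like Schwann cells of neural crest origin, were read as well, with 6 of 6 listed, 5 of 6 called higher and sums of 48.6 to 73.7 CPM in CTL and 51.9 to 168 CPM in Nelfb-/- cells. Most of the CTL sum was Mitf, the marker not called, and the other 5 summed to 1.22 to 1.43 CPM in CTL and 30.3 to 72.1 CPM in Nelfb-/- cells. In CTL the defining markers Tyr, Tyrp1 and Mlana were at 0 or under 0.1 CPM in each library, so they were tested only through the Nelfb-/- libraries. The part of these cells in the level of Itgb4 and Itgb8 was not tested.

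Itgb1 (integrin beta 1), the partner of most alpha chains, was at 718, 731 and 998 CPM in CTL against 960.4, 1254 and 1378 CPM in Nelfb-/- cells, with overlap between CTL replicate 3 and Nelfb-/- replicate 1. Itgb1 had a log2 fold change of 0.55 ± 0.24 (limma, FDR = 0.17). Itgb5 (integrin beta 5), a vitronectin-binding partner of alpha v, was at 139, 149.8 and 109.8 CPM in CTL against 209, 159.5 and 187 CPM in Nelfb-/- cells. Its groups did not overlap, but the change was not called. Itgb5 had a log2 fold change of 0.48 ± 0.18 (limma, FDR = 0.12). Itgb3 (integrin beta 3), the other well-known partner of alpha v, was at 11.1, 9.15 and 21.7 CPM in CTL against 7.44, 9.49 and 11.1 CPM in Nelfb-/- cells, with CTL replicate 3 the highest of all 6. Itgb3 had a log2 fold change of -0.49 ± 0.35 (limma, FDR = 0.38). Itgb7 (integrin beta 7), a lymphocyte chain, did not reach the level for a test, at 0.0451, 0.0933 and 0.238 CPM in CTL against 0.427, 0.524 and 0.653 CPM in Nelfb-/- cells. In the beta family without Itgb2, Itgb1 held 82.9 ± 3.96% of the level per kb in CTL and 83.1 ± 4.42% in Nelfb-/- cells (exact permutation p = 1.0, n = 3), and Itgb8 held 0.0880 ± 0.0059% and 1.02 ± 0.70% (exact permutation p = 0.1, n = 3). The family summed to 240.1 ± 34.3 CPM per kb in CTL and 352 ± 47.1 in Nelfb-/- cells, with no overlap (exact permutation p = 0.1, n = 3).

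Of the alpha chains, Itga4 and Itga9, close relatives that both bind VCAM1 and fibronectin, were upregulated. Itga4 (integrin alpha 4) lies on chromosome 2, 79255426 to 79333123, plus strand (ENSMUSG00000027009). It was at 2.12, 1.82 and 7.02 CPM in CTL against 14.2, 13.0 and 21.5 CPM in Nelfb-/- cells. CTL replicate 3 was the highest CTL library, and all Nelfb-/- libraries lay above it. It was upregulated with a log2 fold change of 2.38 ± 0.53 (limma, FDR = 0.031). The call was lost when most libraries were left out, with an FDR of 0.11 on leaving out CTL replicate 1, 0.099 for CTL replicate 2, 0.052 for Nelfb-/- replicate 1, 0.076 for Nelfb-/- replicate 2 and 0.12 for Nelfb-/- replicate 3, against 0.0048 without CTL replicate 3. Itga9 (integrin alpha 9) lies on chromosome 9, 118606690 to 118901003, plus strand (ENSMUSG00000039115). It was at 5.37, 5.74 and 12.7 CPM in CTL against 18.5, 33.9 and 38.1 CPM in Nelfb-/- cells, again with CTL replicate 3 between the other CTL libraries and Nelfb-/- cells. It had a log2 fold change of 1.97 ± 0.42 (limma, FDR = 0.027), with an FDR of 0.093 on leaving out CTL replicate 1, 0.098 for CTL replicate 2, 0.090 for Nelfb-/- replicate 2 and 0.11 for Nelfb-/- replicate 3. Itga4 is also a chain of leukocytes, whose markers are given beside the leukocyte integrins.

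The alpha chains that bind the RGD motif of fibronectin and related proteins gave 0 calls among 4, a group too small to set against the 11.2% of all genes. Itga5 (integrin alpha 5), the main fibronectin receptor chain, was at 149.8, 150.4 and 194 CPM in CTL against 197, 286 and 290.5 CPM in Nelfb-/- cells, and the groups did not overlap, by a margin of under 3 CPM. Itga5 had a log2 fold change of 0.64 ± 0.21 (limma, FDR = 0.087). Itgav (integrin alpha v), the partner of beta 3, beta 5 and beta 8, was at 68.7, 71.0 and 149 CPM in CTL against 139, 201 and 198 CPM in Nelfb-/- cells, with CTL replicate 3 above Nelfb-/- replicate 1. Itgav had a log2 fold change of 0.97 ± 0.33 (limma, FDR = 0.098). Without CTL replicate 3, Itgav was called, at an FDR of 0.012. Itga8 (integrin alpha 8), a chain of smooth muscle and kidney mesenchyme, was at 127, 113 and 55.9 CPM in CTL against 37.0, 33.1 and 67.6 CPM in Nelfb-/- cells, with CTL replicate 3 low and Nelfb-/- replicate 3 high. Itga8 had a log2 fold change of -1.09 ± 0.40 (limma, FDR = 0.11). It too was called without CTL replicate 3, as lower, at an FDR of 0.033. Itga2b (integrin alpha IIb), the platelet chain, was at 2.12, 2.89 and 3.67 CPM in CTL against 1.99, 1.28 and 1.75 CPM in Nelfb-/- cells, with all Nelfb-/- libraries under CTL. Itga2b had a log2 fold change of -0.76 ± 0.32 (limma, FDR = 0.16). The 2 listed megakaryocyte markers of 5, Pf4 and Gp1bb, both rose, with sums of 6.02 to 14.4 and 40.9 to 103 CPM, and Gp9 and Ppbp were among those not listed. Smooth muscle and pericyte markers summed to 720.0 to 1025 CPM in CTL and 463 to 1131 CPM in Nelfb-/- cells, with 9 of 9 listed and 1 called, Des, which rose (11.1%, beside 7.58% of all genes).

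Among the alpha chains without those of the leukocyte integrins, Itga5 was the largest and held 30.2 ± 0.47% of the level per kb in CTL and 38.1 ± 1.13% in Nelfb-/- cells (exact permutation p = 0.1, n = 3). The share of Itgav was 7.82 ± 2.33% and 12.2 ± 0.55% (exact permutation p = 0.1, n = 3). That of Itga8 was 12.7 ± 6.15% and 4.52 ± 1.38%, with overlap through CTL replicate 3 at 5.75% (exact permutation p = 0.2, n = 3). The 15 alpha chains summed to 111 ± 18.4 CPM per kb in CTL and 137 ± 28.2 in Nelfb-/- cells (exact permutation p = 0.2, n = 3), a difference within the spread of the libraries.

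The laminin-binding alpha chains Itga3, Itga6 and Itga7 were not called, and their groups overlapped. Itga6 (integrin alpha 6), the partner of beta 1 and beta 4, was at 111, 123 and 98.5 CPM in CTL against 79.6, 111 and 94.4 CPM in Nelfb-/- cells. Itga6 had a log2 fold change of -0.23 ± 0.17 (limma, FDR = 0.40). Itga7 (integrin alpha 7), the laminin receptor of muscle, was at 82.4, 89.6 and 177 CPM in CTL against 129, 105 and 92.5 CPM in Nelfb-/- cells, with CTL replicate 3 the highest. Itga7 had a log2 fold change of -0.02 ± 0.31 (limma, FDR = 0.98), and of 0.33 without that library. Itga3 (integrin alpha 3), a receptor for laminins of epithelia, was at 3.97, 3.17 and 4.73 CPM in CTL against 4.22, 2.62 and 2.82 CPM in Nelfb-/- cells. Itga3 had a log2 fold change of -0.31 ± 0.29 (limma, FDR = 0.51). Of 8 skeletal muscle markers 6 were listed and 4 of 4 tested were called higher, with sums of 6.30 to 6.66 and 34.1 to 58.8 CPM.

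The collagen-binding alpha chains Itga1, Itga2, Itga10 and Itga11 were also not called. Itga11 (integrin alpha 11), a fibroblast receptor for fibrillar collagen, was the most abundant of them per kb in both groups. It was at 62.0, 62.0 and 106 CPM in CTL against 45.7, 112 and 162 CPM in Nelfb-/- cells, with the lowest and the highest value both in Nelfb-/- cells. Itga11 had a log2 fold change of 0.34 ± 0.48 (limma, FDR = 0.67). Itga1 (integrin alpha 1) was at 34.6, 37.9 and 29.5 CPM in CTL against 26.0, 48.0 and 50.8 CPM in Nelfb-/- cells and its neighbour on chromosome 13, Itga2 (integrin alpha 2), at 0.947, 0.280 and 1.02 CPM in CTL against 0.711, 1.51 and 1.92 CPM in Nelfb-/- cells. Both had overlapping groups, with FDR of 0.60 and 0.35 (limma). Itga10 (integrin alpha 10), a chain of cartilage, was at 3.41, 5.56 and 1.41 CPM in CTL against 3.55, 1.57 and 1.18 CPM in Nelfb-/- cells. Itga10 had a log2 fold change of -0.66 ± 0.62 (limma, FDR = 0.50). It shares 1739 exon bases with Gm42957 on the same strand, so that reads may be split between them.

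Itgae (integrin alpha E), which pairs with beta 7 on lymphocytes and some dendritic cells and binds E-cadherin, was 1 of the 2 members that fell. The gene lies on chromosome 11, 73090583 to 73147446, plus strand (ENSMUSG00000005947). It was at 5.46, 6.11 and 4.76 CPM in CTL against 2.13, 1.92 and 1.84 CPM in Nelfb-/- cells, with tight groups that did not overlap. The log2 fold change of -1.45 ± 0.23 (limma, FDR = 0.012) passed both limits, with an FDR of 0.055 on leaving out CTL replicate 1, 0.058 for CTL replicate 2 and 0.066 for Nelfb-/- replicate 3. Its partner Itgb7 was under 1 CPM in every library. Of 8 T and B lymphocyte markers only Trac was listed, at 0.53 CPM or less in every library. Itgad (integrin alpha D), a further partner of beta 2 that the rule left among the other integrins, was at 21.0, 27.7 and 49.5 CPM in CTL against 30.0, 44.8 and 36.6 CPM in Nelfb-/- cells, with overlapping groups. Itgad had a log2 fold change of 0.26 ± 0.33 (limma, FDR = 0.63).

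The leukocyte integrins all lay higher in Nelfb-/- cells, with no overlap at any of the 4 chains, and 3 of them were called. Of all genes, 22.0% had groups apart and higher and 7.58% were called higher, but 4 chains are few to set against these shares. Itgal (integrin alpha L), the chain of LFA-1, which binds ICAM-1, lies on chromosome 7, 127296260 to 127335138, plus strand (ENSMUSG00000030830). It was at 0.541, 0.0933 and 0.612 CPM in CTL against 12.5, 8.61 and 15.9 CPM in Nelfb-/- cells. CTL replicate 2 was under the level of 3 reads, and all Nelfb-/- libraries were well above the highest CTL library. The CTL mean of 0.416 CPM is under the 0.448 CPM of the filter, so Itgal was tested only through the Nelfb-/- libraries. Its log2 fold change of 4.997 ± 0.64 (limma, FDR = 0.0072) was the largest of all members on this scale, but it was 3.22 with a pseudocount of 1 CPM, where Itgb8 was higher at 3.38. Itgal was called with each of the 6 libraries left out (FDR from 0.0081 to 0.047), with a log2 fold change of 4.27 without CTL replicate 2. Itgam (integrin alpha M), the chain of Mac-1 on macrophages and neutrophils, lies on chromosome 7, 128062640 to 128118491, plus strand (ENSMUSG00000030786). It was at 42.9, 22.4 and 9.10 CPM in CTL against 195, 68.7 and 113 CPM in Nelfb-/- cells, and it varied several-fold within each group, highest in replicate 1 of both. It was upregulated with a log2 fold change of 2.48 ± 0.62 (limma, FDR = 0.042), with an FDR of 0.12 on leaving out CTL replicate 2, 0.080 for Nelfb-/- replicate 1, 0.065 for Nelfb-/- replicate 2 and 0.13 for Nelfb-/- replicate 3. Itgb2 (integrin beta 2), the common beta chain, was at 46.4, 25.6 and 10.1 CPM in CTL against 269, 63.6 and 102 CPM in Nelfb-/- cells, in the same order of libraries as Itgam, and was not called. Itgb2 had a log2 fold change of 2.39 ± 0.70 (limma, FDR = 0.065). With a term for the split that sets CTL replicates 1 and 2 and Nelfb-/- replicate 1 against the rest, an alternative added after the data were seen, its FDR was 0.00089. That split is not among the sample labels and follows the closeness of these same libraries, so this FDR is no separate support.

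Itgax (integrin alpha X), the chain of CD11c on dendritic cells and macrophages, lies on chromosome 7, 128129547 to 128150657, plus strand (ENSMUSG00000030789). It was at 0, 0.330 and 0.0690 CPM in CTL against 2.11, 0.705 and 1.28 CPM in Nelfb-/- cells. Like Itgal, Itgax had a CTL mean under the filter and was tested only through the Nelfb-/- libraries. CTL replicates 1 and 3 were under the level of 3 reads, so that its fold depends on the pseudocount, with a log2 fold change of 3.82 at 0.5 reads, 2.16 at 5 reads and 1.03 at 1 CPM. It was called with a log2 fold change of 3.38 ± 0.86 (limma, FDR = 0.044), but its FDR was 0.11 on leaving out CTL replicate 1, 0.071 for CTL replicate 3, 0.089 for Nelfb-/- replicate 1, 0.084 for Nelfb-/- replicate 2 and 0.15 for Nelfb-/- replicate 3. Its log2 fold change was 2.64 without CTL replicate 1 and 4.17 without CTL replicate 2. Itgam, Itgax and Itgad are neighbours on chromosome 7, with Itgal on the same chromosome. Itgam shares 3450 exon bases with Gm49368 on the same strand, which was at 0.67 CPM or less in every library.

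The windows before Itgam and Itgax are shown since these neighbours were both called higher. They are on the plus strand of GRCm38.p6 (RefSeq), at chr7:128062390-128062639 (250 bases) and chr7:128129300-128129546 (247 bases, up to the annotated start). Capitals mark matches on either strand to GAGGAA, the core bound by the leukocyte factor PU.1, and to GGGCGG.
Itgam: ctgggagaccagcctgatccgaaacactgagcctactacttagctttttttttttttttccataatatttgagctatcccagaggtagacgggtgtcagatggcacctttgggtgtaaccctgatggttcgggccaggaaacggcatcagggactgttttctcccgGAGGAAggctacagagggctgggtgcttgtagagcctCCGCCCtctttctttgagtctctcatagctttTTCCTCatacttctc
Itgax: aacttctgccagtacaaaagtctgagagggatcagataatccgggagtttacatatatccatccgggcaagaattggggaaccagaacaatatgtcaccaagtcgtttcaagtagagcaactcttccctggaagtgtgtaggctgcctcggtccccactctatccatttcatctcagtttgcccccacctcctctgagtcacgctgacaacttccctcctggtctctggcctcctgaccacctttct
The Itgam window holds GAGGAA 2 times, 84 and 15 bases before the start, and GGGCGG once, 47 bases before it, while the Itgax window holds neither. GAGGAA was present in 12 of the 24 member windows and in 23.3% of all 32851 windows. The windows with it include those of Lamb1 and Lama2, both lower in Nelfb-/- cells, and Itgal and Itgb2 had no matched window. Spi1, which encodes PU.1, was at 9.92, 5.83 and 2.41 CPM in CTL against 61.3, 24.9 and 40.1 CPM in Nelfb-/- cells and was upregulated (log2 fold change 2.91, limma, FDR = 0.020).

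Markers of macrophages and other leukocytes moved with these chains. All 18 were listed, 15 of 17 tested were called higher, and they summed to 1018, 539 and 289 CPM in CTL and to 8543, 2665 and 4472 CPM in Nelfb-/- cells. Cx3cr1 was under 1 CPM in every library. The libraries had the same order in this sum as in Itgam and Itgb2, with replicate 1 the highest of each group. Among the markers, Lyz2 was at 294, 143 and 69.5 CPM in CTL against 3038, 911 and 1583 CPM in Nelfb-/- cells and Csf1r at 22.6, 12.3 and 15.5 CPM in CTL against 206, 87.0 and 148 CPM in Nelfb-/- cells. The 4 leukocyte integrins together were 8.82, 8.98 and 6.89% of the marker sum in CTL and 5.60, 5.31 and 5.20% in Nelfb-/- cells (exact two-sided permutation p = 0.1, n = 3). Their sum thus lay lower relative to the marker sum in Nelfb-/- cells. The marker sum is weighted to abundant genes such as Lyz2, and the integrins were not compared with each marker. Itgal alone was 0.0532, 0.0173 and 0.212% of it in CTL and 0.147, 0.323 and 0.355% in Nelfb-/- cells, with overlap (exact permutation p = 0.2, n = 3). Whether the number of leukocytes differed between the dishes was not tested.

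**Figure D4:**
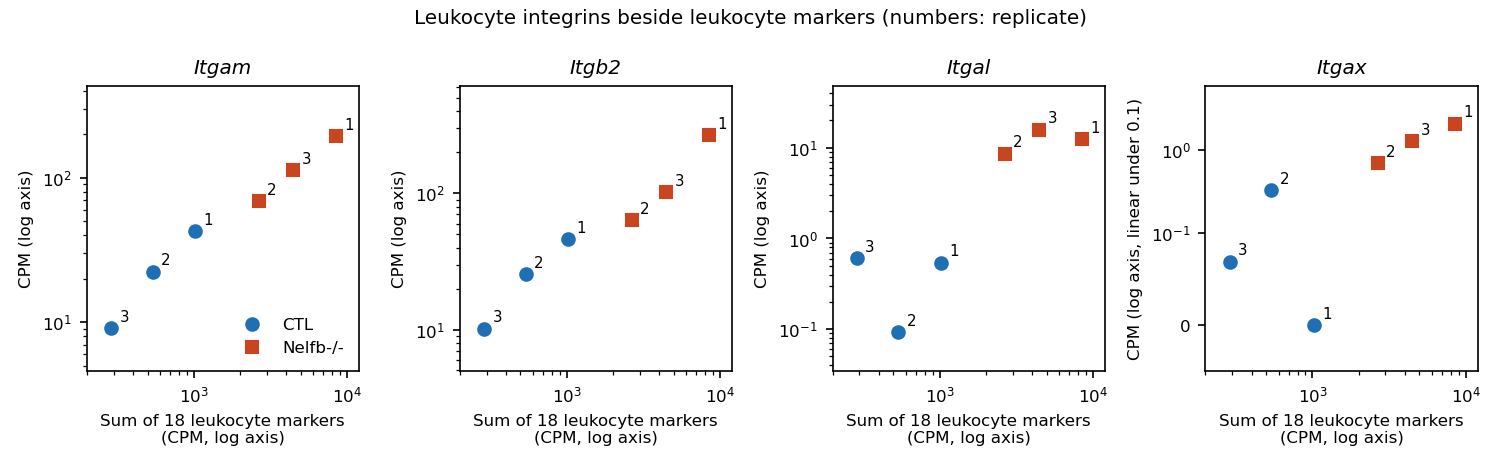
Level of each leukocyte integrin (CPM, log axis, linear under 0.1 for Itgax) against the summed level of 18 leukocyte markers (CPM, log axis) in each library, with circles for CTL, squares for Nelfb-/- cells and the replicate number beside each point. Itgam and Itgb2 keep the order of the marker sum in all 6 libraries, while Itgal is highest in Nelfb-/- replicate 3 and Itgax is at 0 in the CTL library with the most marker reads.

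The other genes of integrin contacts were read from lists. Of 28 tested adaptor and signalling genes (31 in the list, 30 listed), 2 were called higher (7.14%, beside 7.58% of all genes) and 2 lower (7.14%, beside 3.64%), with a median log2 fold change of 0.28. Fermt3, the kindlin of blood cells, was at 9.56, 2.71 and 3.77 CPM in CTL against 63.4, 25.6 and 37.2 CPM in Nelfb-/- cells and rose (log2 fold change 3.08, limma, FDR = 0.015). Pxn, which encodes paxillin, rose as well (log2 fold change 1.03, limma, FDR = 0.0092). Tns2 (tensin 2) fell (log2 fold change -1.21, limma, FDR = 0.014) and so did Lims2, the gene of PINCH2 (log2 fold change -1.01, limma, FDR = 0.0094). Talin 1 (Tln1) and vinculin (Vcl) were not called, at log2 fold changes of 0.52 and 0.21.

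Of 28 tested integrin ligands other than laminins and collagens (32 in the list, 28 listed), 8 were called higher (28.6%, beside 7.58% of all genes) and 0 lower (beside 3.64%), with a median of 0.98 beside 0.07 over all genes. Tnc (tenascin-C), a ligand of alpha 9, was at 103, 84.3 and 239 CPM in CTL against 1439, 3195 and 3621 CPM in Nelfb-/- cells, with no overlap and Nelfb-/- replicate 1 the lowest of its group. Tnc had a log2 fold change of 4.32 ± 0.51 (limma, FDR = 0.0057). Edil3 (log2 fold change 2.67, limma, FDR = 0.0033), Egfl6 (log2 fold change 2.45, limma, FDR = 0.018) and Tgfbi (log2 fold change 2.43, limma, FDR = 0.034), which are secreted ligands of integrins, also rose. The other calls were Vcam1, Spp1 (log2 fold change 1.44, limma, FDR = 0.0092), Fn1 (log2 fold change 1.41, limma, FDR = 0.038) and Plau (log2 fold change 1.22, limma, FDR = 0.023). Vcam1, the cellular ligand of alpha 4, was at 12.8, 11.4 and 40.9 CPM in CTL against 55.1, 77.2 and 71.0 CPM in Nelfb-/- cells (log2 fold change 1.88, limma, FDR = 0.046). Of 23 tested partners of laminin in basement membranes and other laminin receptors (24 in the list, 23 listed), 1 was called higher (4.35%, under the 7.58% of all genes) and 0 lower (beside 3.64%), with a median of 0.41. That was Agrn (agrin), which links laminin to dystroglycan, at 52.5, 38.8 and 89.0 CPM in CTL against 174, 145 and 145 CPM in Nelfb-/- cells (log2 fold change 1.44, limma, FDR = 0.025). These counts changed when single libraries were left out, by values given with the alternatives.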

How the data were processed

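RNA was sequenced from 3 CTL and 3 Nelfb-/- cultures. Per the labels, the deposited values are CPM. The authors mapped reads to mm10 (the processing notes name STAR 2.7 and Partek 9.0.20.0202), left out genes under 10 reads and added an offset of 0.0001 CPM. Counting and strand settings are not given in the sources used here.

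After subtraction of the offset, values were scaled to reads at one shared depth (22.3 M reads). Depth, recovered from the steps between low values, was 17.2 to 29.4 M reads. Only 75.8 to 79.1% of values up to 20 reads were whole (within 0.1 reads), so no count test was run. Genes averaging 10 reads or more (0.448 CPM) over the libraries were tested on log2(reads + 1) with limma 3.58.1 (R 4.3.3, trend, Benjamini-Hochberg adjustment over 16251 genes), and fold changes are on that scale, which understates low genes. The script was tested on simulated data. Shares per kb of exon (GENCODE vM21) were compared by exact permutation (scipy 1.17.1, with pandas 2.3.3 and matplotlib 3.10.9). Coordinates are mm10. The numbers of replicates were not used to pair samples. P-values measure the spread between cultures that the authors call biological replicates.

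Members are named, with up to 4 called genes per direction of each partner list by fold change, and up to 4 called genes and the defining markers near 0 of each marker list. Vcam1, Spp1, Fn1, Plau, Tln1, Vcl, Spi1, Hsd11b1, G0s2, Mitf, Gm49368 and Gm42957 were chosen after their values were seen. The members and lists were chosen with earlier results of these data known. The alternatives were 17 settings, 15 planned (6 of them leaving out a library) and 2 added after the data were seen. No value column was left unused (0 columns), and no set test was run. Values of some genes are not reported here.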

Additional observations from a re-analysis of the deposited data

How the results depend on the processing

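Of the 9 members called higher, 3 were left without moderation of the variances (Itgal, Itgb4 and Itgb8). On leaving out single libraries the number of members called higher ran from 3 (without Nelfb-/- replicate 3) to 9 (without CTL replicate 3, with Itgax lost and Itgav gained), and the number called lower from 0 to 3, without the same libraries (Itga8 was the gain). Itgax was not called with a pseudocount of 0.5 reads (FDR = 0.055), under quantile normalization (0.064), without moderation or with a replicate block (0.058), and Itgam not with a constant prior variance (0.059) or without moderation. The cause was not tested. Same-number correlations of deviations from the group means were 0.515, -0.395 and 0.518, and CTL replicates 1 and 2 both correlated best with Nelfb-/- replicate 1. Deviations within a group of 3 depend on one another, so these values cannot decide whether the replicate numbers pair the samples. The replicate block moved the genes called from 1824 to 2175 and called Itgb2 (FDR = 0.013). Over all genes, 67.5% of calls were higher (1232 and 592 lower), and 54.9% under quantile normalization (1014 and 834), which moved the median log2 fold change of all genes from 0.068 to -0.068. The count of genes called was 684 without moderation and ran from 426 without Nelfb-/- replicate 3 to 2480 without CTL replicate 3.

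Alternatives on the partner lists, the pseudocount of 1 CPM and the term for the second split were added after the data were seen. Of adaptors, 1 was called higher under quantile normalization, median-of-ratios scaling or no moderation, and 1 lower with a pseudocount of 1 CPM or no moderation, with ranges over single libraries left out of 0 to 4 higher and 0 to 2 lower. Of ligands, 4 were called higher without moderation, and 2 to 10 on leaving out single libraries. Of basement membrane partners, 0 were called higher without moderation, and 0 to 1 on leaving out single libraries.

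Log2 fold changes that turned sign were of genes not called. Itga11 was at -0.051 with the second split term and from -0.056 to 0.86 on leaving out single libraries, and Lama5 at -0.10 under quantile normalization and from -0.26 to 0.44. Over single libraries left out, Itga7 ran from -0.22 to 0.33, Itgad from -0.016 to 0.60 and Lama3 from -0.23 to 0.78. Depth limits Itgax and Itgb7, each under the level of 3 reads (0.102 to 0.175 CPM) in 2 CTL libraries, and Itgal, under it in 1.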
